A study of Homo sapiens with 2 samples.

Results

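The DNA replication machinery was taken as 48 genes for origin licensing, the replicative helicase, the replicative polymerases, and the sliding clamp and its loader, with the single-strand binding protein and the enzymes that join lagging-strand fragments. The genes were chosen by symbol from what their products do, not from a measured value, although earlier results of these data were known. All 48 were found among the 57736 genes listed. Their mRNA was measured by sequencing of polyadenylated RNA from HEK293T cells, a line derived from human embryonic kidney and labelled as wild type. HEK293T cells carry an adenovirus E1A gene and the SV40 large T antigen, so they are a transformed line and not a model of normal kidney. All cells were kept for 20 min at 43 °C, returned to 37 °C for 6 h and then lysed separately for each of 2 replicates. These times are from the labels, and the text of the study differs from them in the length of the heating and, in places, of the recovery. Replicate 1 held 22529828 expected counts and replicate 2 held 26890199, from 50 bp reads. Both libraries belong to 1 group and untreated cells are not analysed here, so the values describe levels after recovery and give no effect of the heat. An exact permutation test of 2 libraries against 2 could not go below p = 0.33 in any case. Levels of 2 genes or groups were therefore said to differ only where both libraries of one lay above both libraries of the other, which is a description and no test.

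Chromosomal DNA is copied once per cell cycle. In G1 the origin recognition complex, CDC6 and CDT1 load the ring of MCM proteins onto DNA, and geminin blocks CDT1 afterwards so that no origin is licensed again. In S phase the DBF4-dependent kinase, CDC45 and the GINS complex turn the MCM ring into an active helicase. Polymerase alpha-primase makes primers, the clamp loader places PCNA on them, and polymerases epsilon and delta extend the leading and the lagging strand. Many of these genes are transcribed from E2F sites as cells leave G1, and E2F is held back by the retinoblastoma protein. Both E1A and large T antigen bind that protein.

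Promoter windows were read first, because the E2F sites are what many of the members are known to have in common. Windows of 300 bases, 250 before and 50 after each annotated start (RefSeq, GRCh38.p14), were given for 42 of the 48 members, in 55 windows. None was given for MCM4, MCM5, GINS4, POLD3, RPA2 and RPA3, so these were not searched. The E2F motif was searched on both strands as any of 4 forms (TTTCGCGC, TTTGGCGC, TTTCCCGC and TTTGCCGC), and overlapping matches counted once per gene. At least 1 of them was present in 21 of the 42 members (50.0%), against 6.76% of detected protein-coding genes. Counted by window, the share was 38.2% for the members, 4.87% for detected protein-coding genes and 3.31% for all 35116 windows. The sites below, 1 from each of 13 members, show this shared letter pattern across the licensing, helicase, polymerase, clamp and ligation steps. Each is written 5′ to 3′ on the strand of the gene with the E2F letters, or their reverse complement, in capitals.
MCM2: cgtgaaccactTTTCGCGCgaaacctggtt (chr3:127598402-127598431, plus strand)
MCM6: cattggtcaggTTTGGCGCgaaatctccag (chr2:135876515-135876544, minus strand)
MCM7: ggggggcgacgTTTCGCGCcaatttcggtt (chr7:100101388-100101417, minus strand)
ORC3: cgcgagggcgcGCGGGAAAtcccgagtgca (chr6:87590112-87590141, plus strand)
CDC6: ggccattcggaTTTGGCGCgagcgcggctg (chr17:40287875-40287904, plus strand)
CDT1: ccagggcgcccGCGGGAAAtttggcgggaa (chr16:88803743-88803772, plus strand)
CDC7: gtgcagttcctTTTCCCGCcccccttcgga (chr1:91501033-91501062, plus strand)
GINS2: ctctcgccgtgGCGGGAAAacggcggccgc (chr16:85688967-85688996, minus strand)
POLA2: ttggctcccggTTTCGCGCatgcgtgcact (chr11:65261898-65261927, plus strand)
POLE: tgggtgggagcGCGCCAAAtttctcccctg (chr12:132687342-132687371, minus strand)
PCNA: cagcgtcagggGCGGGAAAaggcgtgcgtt (chr20:5126663-5126692, minus strand)
RFC3: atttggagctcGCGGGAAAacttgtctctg (chr13:33818083-33818112, plus strand)
LIG1: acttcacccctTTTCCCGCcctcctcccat (chr19:48170440-48170469, minus strand)

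In MCM2 the site overlaps its own reverse complement on the other strand, so that the match is palindromic. In MCM6 the site overlaps another of the listed forms on the other strand, and the same overlapping pair is found again further upstream. The first bases of the sites lay between 187 bases before (-187, in MCM7) and 27 bases after (27, in MCM8) the annotated start. The other members with a match were MCM3, MCM8, GMNN, GINS1, GINS3, POLA1, POLE2 and POLE4. Other promoter motifs were searched on both strands too. CCAAT was found in 59.5% of the members against 43.7% of detected protein-coding genes, and the GC box GGGCGG in 78.6% against 79.3%. The cell cycle homology region TTTGAA, an element of genes of the G2 and M phases, was found in 4.76% against 13.4%, and TATAAA in 7.14% against 8.02%. The heat shock element, 3 alternating inverted GAA units with 2 free bases between them, was found in 0 of 42 members and in 0.429% of detected protein-coding genes. Members and detected genes had windows of similar GC content, with medians of 64.3% and 65.0%, against 58.7% over all windows. A match says only that these letters are in the window, and binding of E2F or of heat shock factors was not measured here.

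**Figure D1:**
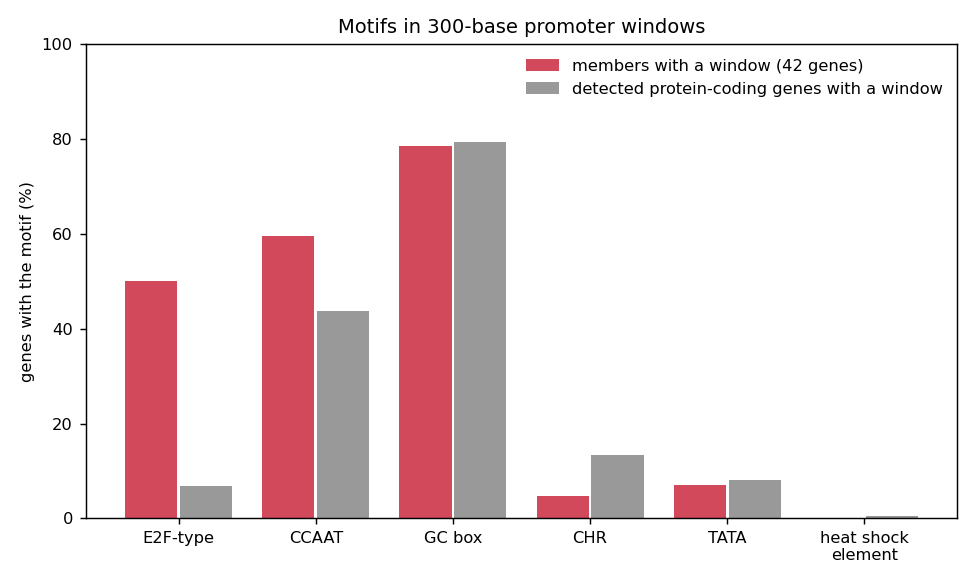
Share of genes (%, linear axis from 0) whose promoter window holds each motif, for the 42 members with a window (red bars) and for detected protein-coding genes with a window (grey bars). The E2F-type bar stands at 50.0% for the members and 6.76% for the other group, whereas the GC box bars stand at 78.6% and 79.3%.

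After heat shock and 6 h of recovery, mRNA of every one of the 48 members was detected, with a TPM (transcript abundance per length, summing to the same total in each library) of at least 1 in both libraries. The same held for 26.3% of all listed genes and for 63.8% of the 19391 protein-coding genes. The median TPM of the members was 49.5 in replicate 1 and 55.3 in replicate 2, while that of the 12367 detected protein-coding genes was 17.3 and 19.8. In both libraries 43 members lay above that median and 15 lay in the top 10% of these genes. The 5 members below the median in both libraries were MCM9, POLE4, PRIM2, POLD4 and ORC5. The 48 genes held 0.467% of TPM in replicate 1 and 0.464% in replicate 2. Expected counts ran from 106 for POLE4 in replicate 1 to 11959 for MCM4 in replicate 2. The posterior SD, the uncertainty of the quantifier when it shares reads among genes, was at most 2.91% of the count, so that none of the members passed the 10% set as uncertain.

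**Figure D2:**
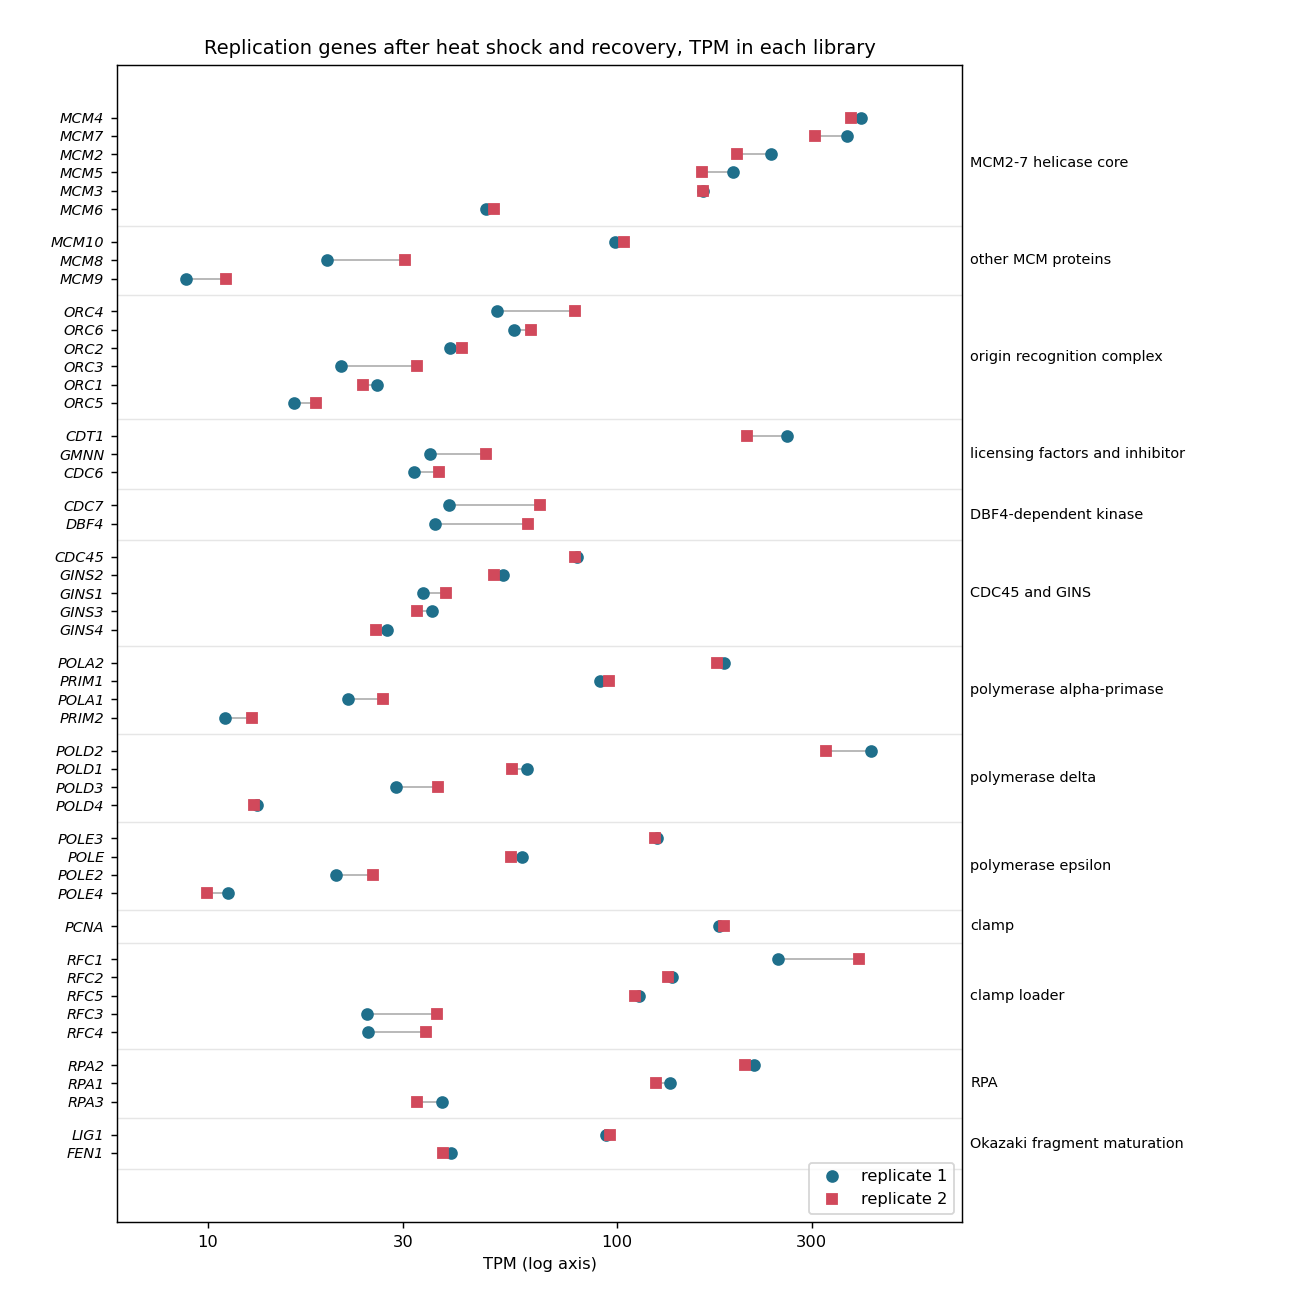
TPM (log axis) of each of the 48 members in replicate 1 (blue circles) and replicate 2 (red squares), with a line joining both values of a gene and the genes grouped by subcomplex. MCM4, POLD2 and MCM7 lie farthest right, MCM9, POLE4 and PRIM2 farthest left, and the long lines of DBF4, CDC7, ORC4 and RFC1 show the genes whose libraries stood farthest apart.

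Between subcomplexes, the helicase core, the clamp and RPA had the highest median TPM and the origin recognition complex and the accessory MCM proteins the lowest. The median over members was 198 ± 25.3 (SD, n = 2 libraries) for the MCM2-7 core and 180 ± 3.98 for PCNA, and these 2 overlapped between libraries. RPA followed at 130 ± 7.01, the clamp loader at 112 ± 1.40, FEN1 with LIG1 at 66.9 in each library, and polymerase alpha-primase at 58.9 ± 3.34. The libraries of each of these 4 lay below those of the group named before it. Next came the DBF4-dependent kinase at 50.2 ± 17.9, polymerase delta at 45.3 ± 0.91, the licensing factors at 41.4 ± 9.16 and polymerase epsilon at 39.9 ± 0.44. Each of these but the last overlapped with the group named after it. CDC45 with GINS stood at 36.8 ± 2.01 and lay below polymerase epsilon in both libraries. The origin recognition complex was at 34.8 ± 3.30, and MCM8, MCM9 and MCM10 had a median of 25.0 ± 7.60, below it in both libraries. These places rest on the median. By the mean over members the other MCM proteins (45.6) stood above the origin recognition complex (38.9), polymerase delta was at 119 and the licensing factors were at 103. In all, 6 of the 12 steps between neighbours in this order were separate in both libraries. Over single members, 9 of the 47 steps were.

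The MCM2-7 core is the motor of the replicative helicase, a ring with each of its subunits present once. MCM4 (ENSG00000104738; chromosome 8, 48872745 to 48890720 of GRCh37) had 397 TPM in replicate 1 and 374 in replicate 2. MCM7 (ENSG00000166508; chromosome 7, 99689856 to 99699563), whose introns hold a microRNA cluster, had 367 and 306. MCM2 (ENSG00000073111; chromosome 3, 127317253 to 127341279) had 239 and 198. These 3 were the highest of the ring in each library, and MCM4 and MCM7 were apart from MCM2 in both. MCM5 had 192 and 162 TPM, and MCM3 had 163 in each. MCM6, at 47.9 and 50.3, was below every other subunit in both libraries, and the highest subunit stood 7.85 times above it in mean TPM. On the reference transcript length, described further on, MCM6 was still the lowest and MCM7 took the place of MCM4 as the highest.

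The other MCM proteins work beside or after that ring. MCM10, which helps to activate the loaded helicase, had 99.3 TPM in replicate 1 and 104 in replicate 2. MCM8, which with MCM9 forms a helicase used in recombination repair, had 19.6 and 30.4, and MCM9 had 8.84 and 11.1. MCM10 lay far above the repair pair in both libraries, and MCM9 was the lowest mean of all 48 members, although its libraries overlapped with those of POLE4.

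The origin recognition complex marks the sites at which the ring is loaded. ORC4 (ENSG00000115947; chromosome 2, 148687965 to 148779173) had 51.1 TPM in replicate 1 and 79.4 in replicate 2, and ORC6, which also has a role in cell division, had 56.0 and 61.6. ORC2 was at 39.1 and 41.8 and ORC3 at 21.2 and 32.5. ORC4 and ORC6 lay above ORC2 and ORC3 in both libraries, although ORC4 became the lowest of the complex on the reference transcript length. ORC1, the subunit whose protein is degraded after G1, was at 25.9 and 23.9, and ORC5 at 16.3 and 18.4, the lowest of the complex in both libraries with the deposited length. The highest to lowest ratio within the complex, 3.77, was smaller than the 7.85 of the helicase core, an order that turned on the reference length (4.75 and 4.34).

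Of the licensing factors, CDT1 (ENSG00000167513; chromosome 16, 88870197 to 88875666), which brings the MCM ring to the origin, had 261 TPM in replicate 1 and 208 in replicate 2. Its inhibitor geminin, encoded by GMNN, had 34.9 and 47.8. CDC6, the ATPase that loads the ring with the origin recognition complex, had 32.1 and 36.7. CDT1 was thus above both of its partners in each library, and GMNN and CDC6 overlapped. On the reference length CDT1 was still the highest, but GMNN (39.7 and 52.5) lay above CDC6 (24.4 and 24.6) in both libraries.

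The kinase that fires licensed origins is a pair of a catalytic and an activating subunit. CDC7 had 39.0 and 65.0 TPM and DBF4 had 36.1 and 60.8. With the deposited length the pair was thus nearly equal within each library (mean TPM 1.07 times apart) and differed between them. On the reference length CDC7 was at 35.8 and 59.4 and DBF4 at 22.2 and 39.4, with means 1.55 times apart. CDC45 was at 80.2 and 79.0 TPM. GINS2 was at 52.8 and 50.1, GINS1 at 33.6 and 38.2, GINS3 at 35.4 and 32.6, and GINS4 at 27.4 and 25.8. CDC45 was the highest and GINS4 the lowest of this helicase-activating group in both libraries, with a ratio of 2.99 between their means. On the reference length GINS1 had the lowest mean instead.

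With the deposited length, the polymerases had the widest spread among subunits of a complex. In polymerase alpha-primase, POLA2 (ENSG00000014138; chromosome 11, 65029384 to 65073430), the regulatory subunit, had 183 TPM in replicate 1 and 176 in replicate 2, while the catalytic subunit POLA1 had 22.1 and 26.8. The primase catalytic subunit PRIM1 had 90.9 and 95.6, and its partner PRIM2 had 11.01 and 12.8. In polymerase delta, the accessory subunit POLD2 (ENSG00000106628; chromosome 7, 44154230 to 44163957) had 420 and 326, and the catalytic subunit POLD1 had 60.5 and 55.4. POLD3 was at 29.0 and 36.6 TPM and the smallest subunit POLD4 at 13.2 and 12.99. All 4 levels of polymerase delta were separate in both libraries, and POLD2 stood 28.5 times above POLD4 in mean TPM. In polymerase epsilon, the histone-fold subunit POLE3, which also serves in a chromatin remodeler, had 126 and 124, against 11.2 and 9.95 for its histone-fold partner POLE4. The catalytic subunit POLE had 58.7 and 55.1, close to POLD1, and POLE2 had 20.6 and 25.4. In each of these 3 polymerases, the subunit of highest mRNA level was thus not the catalytic polymerase subunit, also on the reference length, where PRIM1 led in place of POLA2.

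PCNA (ENSG00000132646; chromosome 20, 5095599 to 5107272), the ring that tethers polymerases to DNA, had 178 TPM in replicate 1 and 183 in replicate 2. Its loader is a pentamer of RFC1, the large subunit, with RFC2 to RFC5. RFC1 (ENSG00000035928; chromosome 4, 39289076 to 39367995) had 248 and 391, the highest of the loader in both, although RFC5 was higher on the reference length. RFC2 was at 137 and 133 TPM and RFC5 at 113 and 111. RFC3 at 24.6 and 36.4 and RFC4 at 24.7 and 34.2 overlapped and lay below the others in both libraries. RPA, which covers single-stranded DNA, is a trimer. RPA2 had 217 and 206 TPM, RPA1 had 135 and 125, and RPA3 had 37.5 and 32.5, and all 3 were separate. LIG1, the ligase that seals lagging-strand fragments, had 94.4 and 96.2, and the flap endonuclease FEN1 had 39.4 and 37.6, an order that turned on the reference length (45.4 for LIG1 and 50.7 for FEN1 on average).

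Levels per length depend on the length that is used. The deposited length is weighted by the isoforms that the quantifier found, and for 12 of the 48 members it was under 50% of the length of the reference transcript (the Ensembl canonical transcript), against 30.5% of detected protein-coding genes. The median was 62.9% for the members and 65.6% for those genes. The extreme case was ORC4, with a weighted length of 12.0% of its reference, followed by RFC1 at 16.4%, POLA2 at 28.4%, MCM10 at 33.6%, LIG1 at 37.0% and MCM4 at 38.2%. For these genes, whose listed transcripts reached the reference length, most of the abundance was given to short transcripts. The reference transcript was among those listed for 43 of the 48 members. MCM8, at 47.6%, is an exception, as its longest listed transcript had 3835 bases against 7486 in the reference. Its low percentage thus reflects a reference that was not quantified.

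With counts divided by the reference length instead, ORC4 was at 7.38 TPM in replicate 1 and 12.4 in replicate 2, and its rank among the members went from 20 to 45. RFC1 was at 50.4 and 81.0 TPM, with a rank of 16 in place of 4, and POLA2 at 66.0 and 64.0, with a rank of 17 in place of 9. PCNA, whose weighted length was 105% of the reference, was at 246 and 257 TPM and rose to rank 2. These values were rescaled to the same total in each library, which raises genes near their reference length. ORC1, at 101% of its reference length, thus went from a mean of 24.9 to 33.3. MCM7 then had the highest mean, with 299 and 261 TPM, and MCM4 was at rank 4 with 190 and 191. On this scale PRIM2 came nearer to its partner, at 19.2 and 22.6 TPM, because its reference transcript is shorter than the weighted length (132%). The ratio of highest to lowest member fell from 15.1 to 3.28 in polymerase alpha-primase and from 10.9 to 3.85 in the clamp loader, and for polymerase delta it was 30.1. PCNA, the MCM2-7 core, RPA and the clamp loader were the 4 highest groups on both scales, and the origin recognition complex and the other MCM proteins the 2 lowest. On the reference length, the median of the other MCM proteins is that of MCM8, whose reference was not quantified, so their place there is uncertain. The median of the members was 45.7 TPM against 14.5 for detected protein-coding genes, with 44 members above the latter. Levels of ORC4, RFC1 and POLA2 in particular therefore depend on which transcript their reads are taken to come from.

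**Figure D3:**
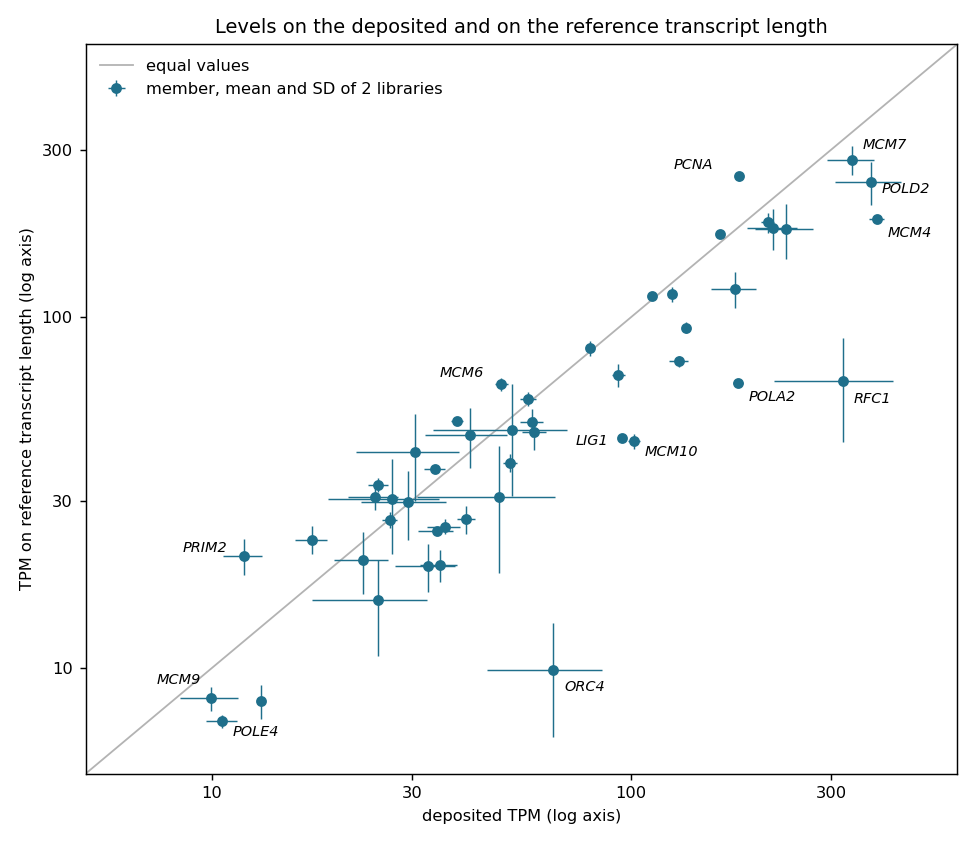
Mean TPM of each member with the deposited, isoform-weighted length (x, log axis) against mean TPM with the reference transcript length (y, log axis), with bars for the SD of 2 libraries. ORC4 (65.2 and 9.89), RFC1 (320 and 65.7) and POLA2 (180 and 65.0) lie farthest below the line of equal values. PRIM2 and PCNA are among the members above it. Both scales sum to the same total, so genes near their reference length also lie above the line.

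The 2 libraries of the group were then compared gene by gene, by an exact two-sided binomial test on rounded expected counts with Benjamini-Hochberg adjustment over the 19714 genes that had 10 or more counts in sum. The test asks whether these libraries differ beyond counting noise, and says nothing of a condition. It called 35 of the 48 members (72.9%), where the share over all genes tested was 42.5%. Among them 11 were higher in replicate 2, a direction that held 20.6% of all genes, and 24 were higher in replicate 1, against 21.9%. The members have deep counts, and calls follow depth. At 100 or more summed counts the test called 56.3% of genes (26.2% higher in replicate 2 and 30.1% in replicate 1), and of the 7974 with at least 1000 it called 72.3%, beside 34 of the 45 members at that depth. The share called among the members was thus near that of other genes of like depth.

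The differences themselves were small. On the log2 scale (TMM-scaled, 0.5 count added), the median ratio of replicate 2 over replicate 1 was -0.10 over the members, -0.08 over genes of 1000 or more summed counts and 0.00034 over all genes tested. The SD of the ratio was 0.30 over the members and 0.43 over genes of 100 or more summed counts. Within 1.5-fold lay 45 members, and 88.2% of those genes did. The members beyond it were DBF4 with a log2 ratio of 0.69 (1113 and 2218 counts, adjusted p = 5.05e-39 by the exact binomial test), ORC4 with 0.61 (666 and 1258 counts, 2.31e-18) and CDC7 with 0.60 (1574 and 2939 counts, 6.31e-40). RFC1, MCM8 and ORC3 followed with log2 ratios of 0.55, 0.50 and 0.49. At the other end, CDT1 had a log2 ratio of -0.50 (7277 and 6356 counts, adjusted p = 1.46e-88), POLD2 had -0.42 and MCM2 had -0.41.

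With an allowance for variation between cultures, few of these calls were left. In edgeR's exact test, where a biological coefficient of variation of 0.1 was assumed, the call was made for DBF4 alone (Benjamini-Hochberg adjusted p = 0.0202) of the members, against 7.24% of all genes, and CDC7 had an adjusted p of 0.058. An unadjusted p under 0.05 was given to 10 members by that test. The share of all genes at that unadjusted threshold was not computed, so the count shows no excess among the members. The common dispersion, a coefficient of 0.20, was estimated from these same 2 libraries treated as 1 group. Their difference was thus counted as dispersion, so few calls follow by construction and no conclusion is drawn from them. With it, the edgeR exact test called 0 members, 0 had an unadjusted p under 0.05, and 0.781% of all genes were called.

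The ratio between the libraries went with the GC content of the transcripts, for the members as for other genes. Across the 48 members, Pearson's r was -0.73 with a Spearman's rho of -0.80, and across 13544 genes they were -0.64 and -0.72. These are across genes that share the same libraries, and genes are not independent replicates. GC content ran from 37.6% in ORC4 to 64.9% in POLD1, with a median of 46.2% for the members and 49.2% for detected protein-coding genes. Of the 24 members of lower GC content, 11 were called higher in replicate 2 and 3 in replicate 1, with a median log2 ratio of 0.10. Of the 24 of higher GC content, 0 were called higher in replicate 2 and 21 in replicate 1, with a median of -0.22. The median log2 ratio of all genes likewise ran from 0.92 in the lowest of 50 GC classes to -0.30 in the highest. Shares called among all genes of like GC content were not computed, so these counts show nothing particular to the members. The groups that had stood apart between libraries, such as the DBF4-dependent kinase (median GC 40.1%) and the MCM2-7 core (54.0%), lay on opposite sides of this relation.

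With the GC trend of all genes removed, 25 members (52.1%) were called, against 26.4% of all genes. Shares over all genes are not matched to the deep counts of the members, so they show no excess among the members. Higher in replicate 2 were MCM8, CDC7, DBF4 and RFC1, 4 members against 13.2% of all genes, and 21 were higher in replicate 1, also against 13.2%. CDC7 then had a log2 ratio of 0.23, DBF4 of 0.20 and RFC1 of 0.27, less than the 0.60, 0.69 and 0.55 before. ORC4 went from 0.61 to -0.09. The lowest members after removal were RPA3 at -0.49, PRIM2 at -0.45 and ORC5 at -0.42. The median over the members was -0.11, where the trend was centred on 0 for all genes. How library preparation, RNA quality and the state of the cultures entered these ratios was not tested.

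**Figure D4:**
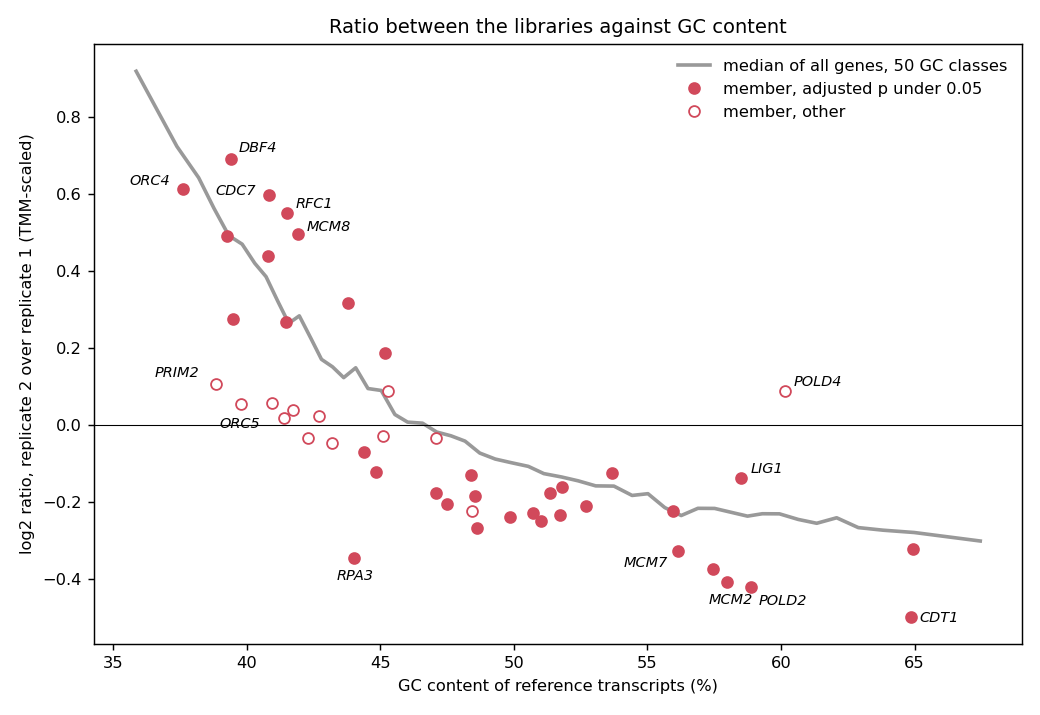
Log2 ratio of replicate 2 over replicate 1 (y) against GC content (x, %) for the 48 members. GC content is over all annotated transcripts of each gene together, although the axis names reference transcripts. Points are filled where the adjusted p of the exact binomial test was under 0.05. The median of all genes in 50 GC classes is a grey line. Members of low GC content such as DBF4 (0.69) and ORC4 (0.61) lie high and GC-rich ones such as CDT1 (-0.50) lie low, as the line of all genes does, whereas PRIM2, ORC5 and RPA3 lie below that line.

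The members lay on 19 chromosomes, and many had a gene starting close by in the other direction. A protein-coding gene on the opposite strand began within 1000 bases of the start of 20 members (41.7%), against 18.0% of the 12367 detected protein-coding genes, and within 200 bases for 12 of the 20. The closest pair was MCM4 with PRKDC, which encodes the catalytic subunit of DNA-dependent protein kinase, at 7 bases, with 188 and 199 TPM for PRKDC. GINS3 and PRSS54 were 33 bases apart, and PRSS54 had 0.16 TPM in replicate 1 and was listed at 0 in replicate 2. ORC3 and RARS2 were 39 bases apart, with 19.5 and 20.0 TPM for RARS2. The member had the higher TPM in both libraries in 16 pairs. The neighbour did in 4, which were named after their values were seen. These were TRMT6 beside MCM8, TMEM258 beside FEN1, PRPF38A beside ORC1 and UFD1 beside CDC45. Starts were taken as the outermost annotated 5′ end of each gene, which need not be the start in use. The GINS3 promoter window read above lay at another start, far inside the annotated gene. Whether GINS3 and PRSS54 share a start region was therefore not tested, although their levels lay far apart.

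Exons of 19 members overlapped those of another annotated gene, and for 13 the other gene had at least 10 counts in both libraries. The longest such overlap was 431 bases, between ORC4 and ACVR2A, and MCM7 shared 392 bases with AP4M1 on the other strand. AP4M1 had 168 and 177 counts, against 10037 and 9873 for MCM7. DBF4 shared 145 bases with SLC25A40, at 395 and 645 counts. Whether the counting used strand is not stated in the sources, so reads in these stretches could not be assigned with certainty, and the TPM of ORC4 is uncertain on this ground as well. Strand would not separate overlaps on the same strand. PRIM1 shared 139 such bases with NACA (6997 and 10104 counts), and FEN1 shared 49 with FADS2 (1799 and 1716). POLD3 shared 123 with LIPT2-AS1, which had only 38.5 and 56.3 counts.

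Genes that work beside the members were present too. Of 33 cofactors of the fork and the origin, 32 were matched and all 32 were detected, with a median of 54.7 TPM. The highest were DNMT1, the maintenance DNA methyltransferase, at 397 TPM in replicate 1 and 418 in replicate 2, then TOP2A, a topoisomerase, at 155 and 266, and CHAF1A, a histone chaperone subunit, at 153 and 151. The lowest were ATAD5, which unloads PCNA, at 5.79 and 18.3, MTBP, an origin firing factor, at 8.05 and 13.2, and ASF1A, a histone chaperone, at 6.43 and 7.91. Between the libraries 11 of the 32 were called higher in replicate 2 and 13 in replicate 1, beside 20.6% and 21.9% of all genes tested. For this and the next lists, these shares are not matched for depth. RIF1, which holds back late origins and was singled out after its values were seen, had a log2 ratio of 1.92, and of 1.23 with the GC trend removed. This was more than in any of the 48 members.

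All 13 genes of nucleotide supply were detected, with a median of 113 TPM. IMPDH2, of guanine nucleotide synthesis, had 369 and 322 TPM, and RRM2, the small subunit of ribonucleotide reductase, had 249 and 248. RRM2B, the stress-induced form of that subunit, had 3.37 and 5.91, DUT, which removes dUTP, had 18.3 and 18.9, and SAMHD1, which breaks down deoxynucleotides, had 29.9 and 30.6. Thus RRM2 was far above RRM2B in both libraries. Of these 13 genes 1 was called higher in replicate 2 and 7 in replicate 1, beside the same 20.6% and 21.9%. The 16 genes of other DNA polymerases and their partners, of repair, translesion synthesis, mitochondria and telomeres, were all detected at a lower median of 14.9 TPM. MAD2L2, a subunit of polymerase zeta, led with 131 and 103 TPM, and POLG, the mitochondrial polymerase, had 50.8 and 53.9 and POLDIP2, a partner of polymerase delta, 53.7 and 49.0. Lowest by their means were TERT, of telomerase, with 3.85 and 3.86, and the translesion polymerases POLI with 2.47 and 5.99, which overlapped TERT, and POLN with 4.59 and 6.73. Of the 16 genes 6 were called higher in replicate 2 and 4 in replicate 1, again beside 20.6% and 21.9%.

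The label of the cells was read against markers. Of 14 kidney epithelial and nephron genes, 4 were detected, KRT18 at 52.6 TPM, KRT8 at 12.4, CDH1 at 6.70 and LRP2 at 5.54, whereas UMOD, AQP2 and CDH16 were at 0 in both libraries. Of 6 neuronal genes matched, 4 were detected, UCHL1 at 382 TPM, NEFM at 50.8, INA at 19.9 and TUBB3 at 7.70. Of 7 genes of cells not in the culture, COL1A1 (22.5 TPM) and COL3A1 (1.82) were detected, and PTPRC and CD3E were at 0. In bulk RNA, a smaller share of cells in S phase and less mRNA per cell cannot be told apart, so levels of the members do not give the share of cells replicating DNA.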

How the data were processed

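Poly(A)+ RNA of 2 replicates was sequenced by the authors. Per the labels, reads were trimmed with Trimmomatic 0.36, aligned with STAR 2.6.1c to hg19 (GRCh37.p13) and quantified with RSEM 1.3.1, while the study's methods name featureCounts. The deposited tables hold RSEM columns. Each expected count deposited by the authors shares multi-mapped reads among genes, and was rounded to whole numbers for tests. The deposited TPM and FPKM values were divided by the authors' quantifier by an isoform-weighted effective length. A table of the whole series, and the molecule label, genomic DNA, were not used.

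The members and lists were chosen with earlier results of these data known. All members are named. Of each other list, the 3 genes of highest and the 3 of lowest mean TPM are named, apart from those not reported here, and others named were singled out after their values were seen. UHRF1, NEFL and PECAM1 had no matched symbol. Identifiers were matched to GENCODE for GRCh37 (96.1%), which also gave GC content, positions and reference transcripts. GC content was taken over all annotated transcripts of a gene together, not over the reference transcript alone.

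Library sizes were TMM-scaled (edgeR 4.0.16). The binomial test came from scipy 1.17.1 with statsmodels 0.14.6, was tested on simulated data, and compares libraries only. Trends were medians in 50 classes of genes with 100 or more summed counts. Alternatives covered detection, units, scaling (DESeq2 1.42.0), filters, GC and length trends, dispersion and leaving out a replicate. Levels on the reference transcript length were added after seeing the data. Counting precision follows from 22529828 and 26890199 counts per library.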

Additional observations from a re-analysis of the deposited data

How the results depend on the processing

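All 48 members were detected at a TPM of at least 0.1, 1 or 5, at an FPKM of at least 1 and in each library alone, and 46 at a TPM of at least 10. The median TPM was 49.5 or 55.3 with a replicate left out, 71.5 rescaled to protein-coding genes and 45.7 on the reference transcript length. With the mean over members in place of the median, levels were 45.6 for the other MCM proteins, 38.9 for the origin recognition complex, 103 for licensing factors, 45.5 for CDC45 with GINS, 77.4, 119 and 53.8 for polymerases alpha, delta and epsilon, and 125 for the clamp loader. On the reference length, medians were 15.6 for the other MCM proteins, 27.3 for the origin recognition complex, 47.6, 34.8 and 39.4 for those polymerases, 65.7 for the clamp loader and 74.8 for RPA. The 15.6 is the value of MCM8, whose reference transcript was not among those quantified. The posterior mean gave 41.2 for polymerase epsilon and 110 (110.1) for the clamp loader. Ratios of highest to lowest member in CPM (counts scaled to the library total, not to length) were 3.20 for the MCM2-7 core, 4.70 for the other MCM proteins, 2.59 for the origin recognition complex, 1.88 for CDC45 with GINS, 6.67 for polymerase alpha, 61.5 for polymerase epsilon, 8.06 for the clamp loader and 9.25 for RPA. On the reference length they were 4.34, 5.40, 4.75, 3.22, 3.28, 16.5, 3.85 and 9.47 in the same order, and the posterior mean gave 2.88 for CDC45 with GINS. Between the libraries, 1 member was called at a biological coefficient of variation of 0.1 (1 higher in replicate 2, 0 in replicate 1) and 0 at the common dispersion (0 and 0). Higher in replicate 2 were 4 members with the GC trend removed and 7 with the GC and length trends removed. Log2 ratios of 13 members changed sign with the GC trend removed. Among those called before were ORC3 (-0.0068), ORC4 (-0.088), GMNN (-0.012), POLE (0.00018), POLE2 (-0.21), FEN1 (0.033) and LIG1 (0.095), and among those not called before MCM9 (-0.160), ORC2 (-0.297), ORC5 (-0.418), POLA1 (-0.232), PRIM1 (-0.270) and PRIM2 (-0.449), of which all but MCM9 were then called. With both trends removed 12 changed sign, ORC3 (-0.0074), POLA2 (0.017), POLE2 (-0.14), RFC2 (0.021), FEN1 (0.0044) and LIG1 (0.16) among those called before, and MCM9 (-0.192), ORC2 (-0.298), ORC5 (-0.436), POLA1 (-0.335), PRIM1 (-0.156) and PRIM2 (-0.452) among the others. Scaling by library totals turned 4 that were not called, MCM6 (0.0018), MCM10 (0.019), GINS1 (0.015) and POLE3 (0.013). That scaling lost 5 calls, DESeq2 size factors 1 and no filter 3, each with its direction kept, and a pseudocount of 5 or a summed count of at least 100 lost none. The cause was not tested, except that a larger assumed dispersion leaves fewer calls by construction. No paired analysis was possible because both libraries are of 1 group, and with 1 library left out there is no test between libraries. With 2 libraries, the SD of a level is itself imprecise.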
